A study of Mus musculus with 38 samples.

Results

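Wnt ligands, their receptors and the proteins that limit them were followed in mouse back skin in which Srsf2, the gene of an SR splicing protein, was deleted or carried the P95H mutation. Genes were taken by name: the Wnt, Fzd, Sfrp, Dkk, Rspo, Dact and Axin families together with Lrp5, Lrp6, Wif1, Frzb, Notum, Nkd1 and Nkd2, where they averaged 10 or more across a table's libraries. In all, 54 of the 49585 genes listed carried such a name, 49 reached the mean in at least 1 of the 4 tables, and 33 did so in every table. The 5 names below it throughout were Wnt1, Wnt8b, Dkk1, Dkk4 and Rspo4os, an antisense transcript. Of these genes, 49 were tested in whole skin of the knockout set, 47 in whole skin of the P95H set, 40 in sorted cells of the knockout set and 33 in sorted cells after DMBA/TPA.

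The 38 RNA-seq libraries fell into 12 groups. Whole skin of Krt14-CreER positive mice labelled SRSF2-KO came after 4, 10 and 12 days of topical 4-hydroxy tamoxifen (3 mice each), and was set against 3 Cre-negative controls that had received the same drug for 12, 12 and 10 days. Whole skin of Krt14-CreER positive SRSF2-P95H mice came after 12 days (2 mice) and 28 days (4 mice), with Cre-negative, drug-treated controls at 12 days (5 mice) and 28 days (3 mice). Reporter-positive cells sorted from back skin came from 3 SRSF2-KO and 3 control mice after 10 days of 4-hydroxy tamoxifen, and from 3 SRSF2-P95H-het and 3 control mice given tamoxifen by injection (3x) and then DMBA/TPA, which pairs a mutagen with a tumour promoter, for 20 weeks. The tdTomato reporter was wild type in the P95H skin set and heterozygous, homozygous or wild type from mouse to mouse in the knockout skin set. The labels used here give no Cre status or driver for the sorted groups, and no age or sex of the mice. Krt14-CreER acts in keratin 14 expressing epithelium, so in whole skin the other cells of the tissue keep the unrecombined allele.

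Wnt proteins carry a lipid, bind a Frizzled receptor and, for the branch that works through beta-catenin, also Lrp5 or Lrp6. Beta-catenin then escapes the Axin and Apc complex and acts with Tcf and Lef factors on target genes, among them Axin2 itself. R-spondins, through Lgr receptors, keep Frizzled proteins on the cell surface. Sfrp, Dkk, Wif1 and Frzb proteins hold ligands or co-receptors back outside the cell, and Axin2, Nkd1, Nkd2, Notum and the Dact proteins act as brakes or scaffolds. In skin the pathway is known for starting and sustaining hair follicle growth and for exchange between the epithelium and the dermal papilla.

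Depth, estimated from the tables, in units of 1e6 reads per library, was 24.9 to 36.8 in knockout-set skin, 7.37 to 32.2 in P95H-set skin, 45.9 to 92.8 in sorted knockout-set cells and 11.0 to 17.2 in sorted DMBA/TPA cells. Whole-skin values are given in steps, where 1 step is a library's smallest positive value and the level at which undetected genes sit, and sorted values are the deposited normalised counts. Srsf2 itself had 3659, 3359 and 1900 normalised counts in sorted SRSF2-KO cells against 17560.3, 18190.2 and 20595 in sorted control cells (log2 difference -2.71 ± 0.27 SE, adjusted p = 0.043 by limma). In whole skin of the knockout set, controls had 2879 to 2996 steps of Srsf2. Knockout skin lay below all of them at 4 days (2450 to 2790) and at 12 days (2303 to 2559). At 10 days it had 2996 to 3687 steps, with no library below any control. Srsf2 passed the test in whole skin at none of the 3 times. In whole skin the shallowest library was replicate 1 of the P95H mice at 28 days, and the sorted SRSF2-KO library with replicate number 2 had the most genes without a read in its table. In units of 1e6, the normalised counts of this sorted library summed to 157.28, against 54.89 to 66.63 in the rest of its table. In whole skin, fewer cells of a type and less RNA per cell cannot be told apart.

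Which Wnt genes each source of RNA held was read per kilobase of annotated exon, within a table. In sorted control cells of the knockout set the highest was Wnt3, a ligand of the epidermis and the hair shaft precursors, at 2534 normalised counts per kb (range 2175 to 3061, n = 3). Fzd7 followed with 2388 (range 2115 to 2707), then Fzd6 with 1878 (range 1706 to 2115), Wnt4 with 1835 (range 1488 to 2517) and Wnt10a with 1701 (range 1412 to 1972). Wnt3 and Fzd7 overlapped, Wnt4 overlapped the other 4, Fzd6 overlapped Wnt10a, and the ranges of Fzd7 and Fzd6 only just failed to meet. In control skin of the knockout set the receptors Fzd7 and Fzd1 led, with 757 steps per kb (range 695 to 831) and 721 (range 656 to 810), and overlapped each other and the antagonist Sfrp5, which averaged 527.5 and reached 752. Wnt3 was the highest ligand there with 365 steps per kb (range 293 to 437), and Wnt4 with 327 (range 258 to 433) overlapped it.

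In all, 9 of the 49 genes were under the mean in sorted knockout-set cells. These were Wnt2b, the R-spondins Rspo1, Rspo2 and Rspo4, and the antagonists Dkk2, Frzb, Sfrp2, Sfrp4 and Sfrp5. Frzb, for example, had 0, 0 and 0 normalised counts in sorted SRSF2-KO cells and 0.8, 0 and 0.9 in sorted control cells, while whole skin of the same set held 46 to 356 steps. Dkk3, Sfrp1 and Wif1 were the antagonists tested in the sorted cells, and Rspo3 was the R-spondin. The 10 basal keratinocyte markers summed to 1200123 to 2564150 normalised counts in sorted SRSF2-KO cells and 1220930 to 1692294 in sorted control cells. For the dermal fibroblast markers, 10 of 14 were tested, and they summed to 2449 to 8523 in sorted SRSF2-KO cells and 2846 to 4398 in sorted control cells.

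**Figure D1:**
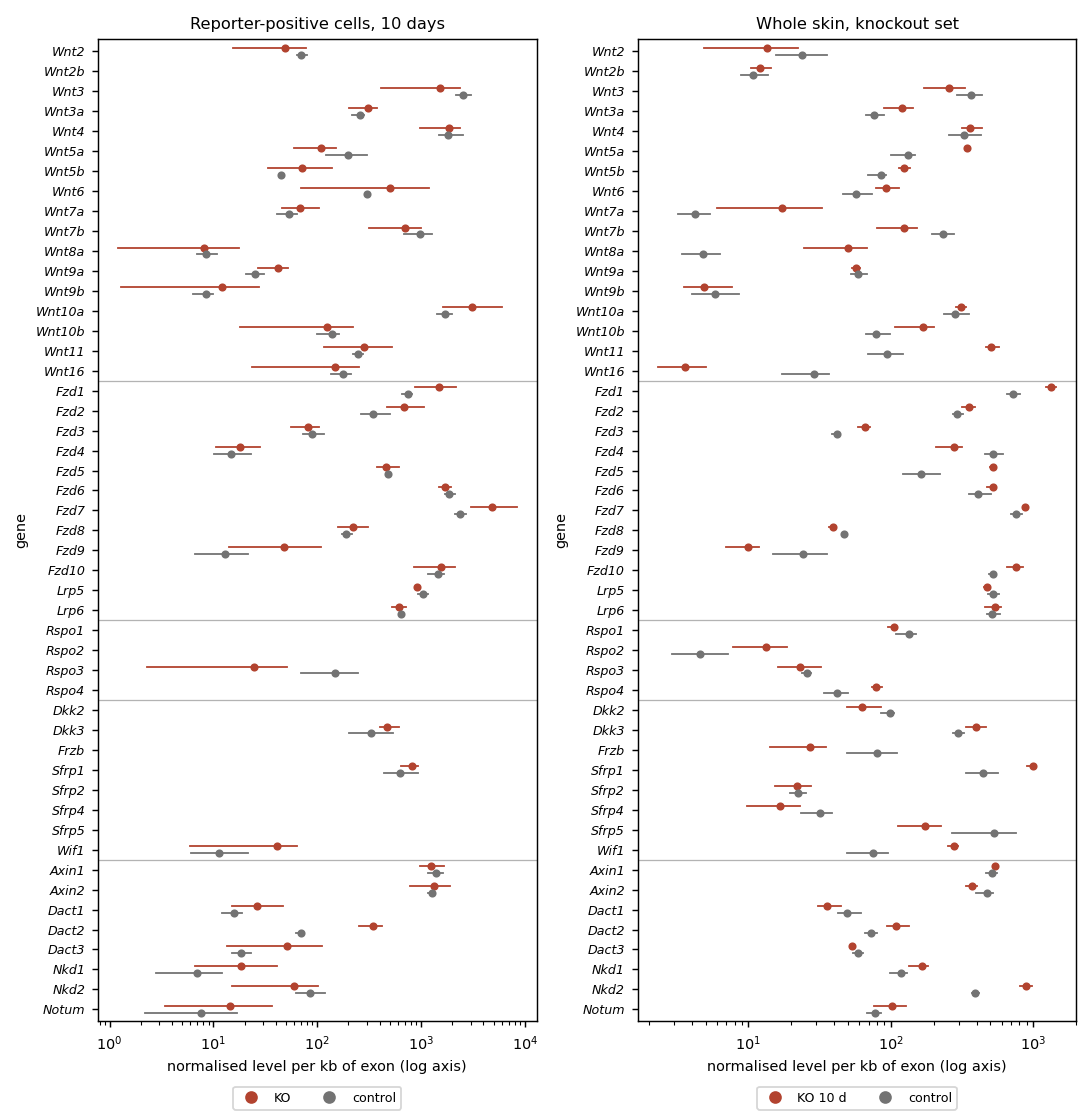
Level per kb of exon (log axis) of each Wnt gene, mean as a point and range over 3 libraries as a line, in sorted cells (left: SRSF2-KO and control, normalised counts) and whole skin (right: SRSF2-KO at 10 days and control, steps), with genes grouped from top to bottom as ligands, receptors, R-spondins, secreted antagonists and feedback genes. The rows of Wnt2b, Rspo1, Rspo2, Rspo4, Dkk2, Frzb, Sfrp2, Sfrp4 and Sfrp5 are empty for sorted cells because their mean was under 10, and the 2 panels were normalised separately.

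In knockout skin the largest set of changes in Wnt genes fell at 10 days. A gene is counted as changed where limma gave an adjusted p under 0.05 over all genes of the table. At 10 days 16 of 49 rose and 7 fell relative to control skin, where 13.3% of all 19450 genes tested rose and 11.9% fell. The median log2 difference over the 49 was 0.18, against -0.02 over all genes. By role, 7 of 17 ligands rose and 2 fell, 3 of 12 receptors rose and 2 fell, 2 of 4 R-spondins rose, 3 of 8 secreted antagonists rose and 3 fell, and 1 of 8 feedback genes rose. Leaving out control replicate 2 left 10 genes called, and leaving out the 10 day knockout with replicate number 2 left 12. The split depends on scaling. With library totals made equal the median of all genes moved to -0.34 and 10 Wnt genes were higher and 15 lower, while with values as deposited it was 0.26 and 18 were higher and 3 lower. Wnt11, Wnt8a, Wnt5a, Wnt16, Wif1, Fzd5, Fzd1, Nkd2 and Sfrp1 were called under every alternative run. Of these, Wnt8a met the mean of 10 only through its level at 10 days.

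**Figure D2:**
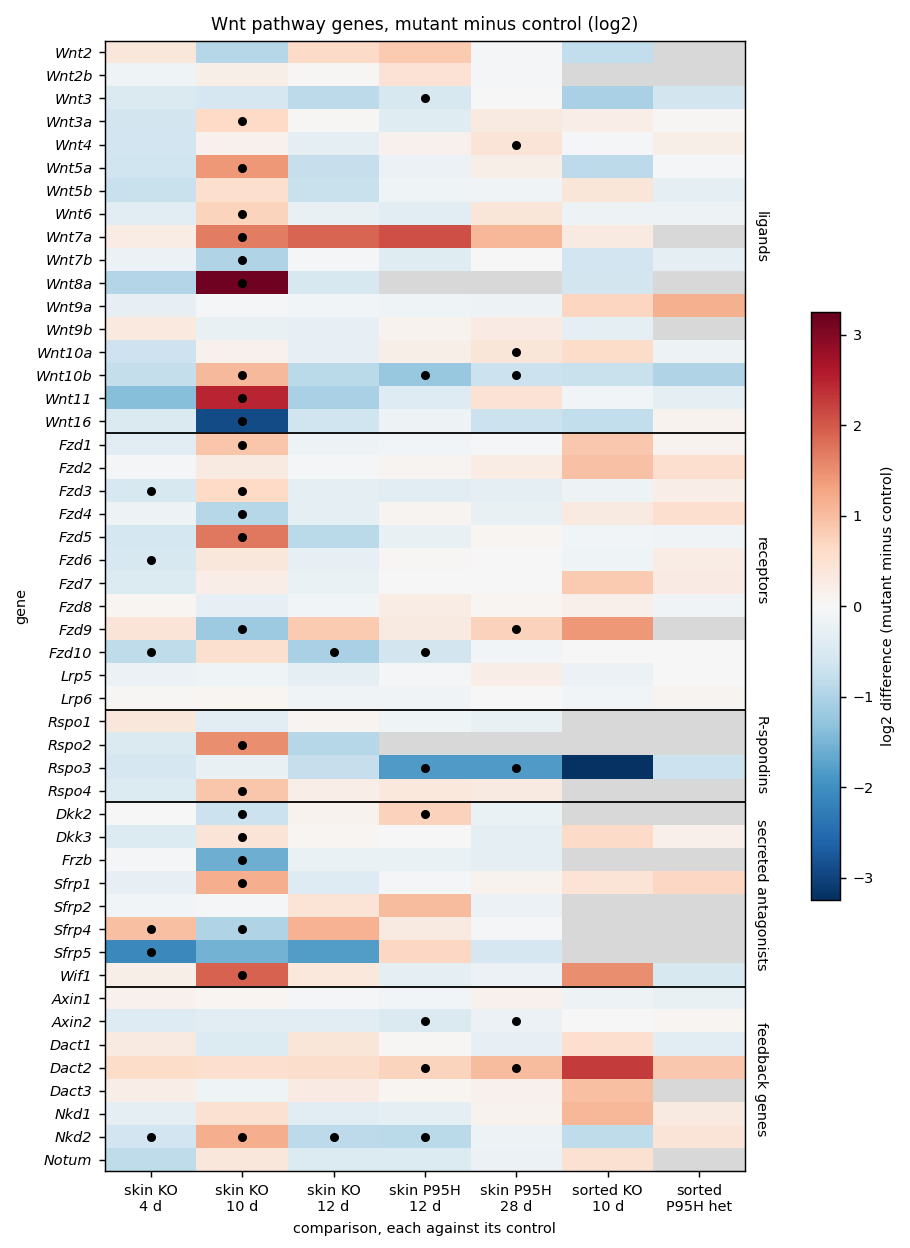
Log2 difference, mutant minus control, of 49 Wnt genes (rows, by role) in 7 comparisons (columns), red higher and blue lower in the mutant, with a black dot where the adjusted p was under 0.05 and grey where the gene was under the mean of 10. The column of knockout skin at 10 days carries 23 dots, and the 2 columns of sorted cells carry none.

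Among the ligands, Wnt5a and Wnt11, both known mainly for signalling that does not need beta-catenin, rose together at 10 days. Wnt5a had 503, 863 and 618 steps in knockout skin at 4 days, 2689, 2595 and 2739 at 10 days and 468, 726 and 646 at 12 days, against 1160, 778 and 1157 in control skin. Wnt11 had 84, 257 and 136 steps at 4 days, 1928, 2004 and 2364 at 10 days and 99, 254 and 229 at 12 days, against 373, 285 and 501 in control skin. For both genes every knockout library at 10 days lay above every other library of the set. The log2 difference from control at 10 days was 1.40 ± 0.22 SE for Wnt5a (2.63-fold, adjusted p = 0.00422) and 2.47 ± 0.41 for Wnt11 (5.54-fold, adjusted p = 0.00479).

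Wnt8a, known from early embryonic patterning, was near the level of no detection except at 10 days. It had 6, 4 and 2 steps at 4 days, 43, 101 and 119 at 10 days and 5, 5 and 6 at 12 days, against 8, 11 and 6 in control skin. The 10 day libraries did not overlap the others (log2 difference 3.16 ± 0.42, adjusted p = 0.00271). Group means were 4.0, 87.67, 5.33 and 8.33 steps in the same order, so Wnt8a reached the mean of 10 only through the 10 day group. Its test and its place in the counts are therefore no separate support for a rise. Wnt10b, a ligand that promotes hair follicle growth in mice, had 134, 230 and 119 steps at 4 days, 366, 684 and 654 at 10 days and 98, 188 and 164 at 12 days, against 336, 226 and 244 in control skin. Its lowest 10 day library was only slightly above the highest control, and the rise of 1.04 ± 0.33 had an adjusted p of 0.0395. Wnt7a, Wnt6 and Wnt3a rose by 1.66, 0.72 and 0.64 on the log2 scale, with overlap between the groups for Wnt3a.

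Wnt16, a ligand best known for its role in bone, moved the other way. It had 146, 80 and 55 steps at 4 days, 22, 10 and 15 at 10 days and 130, 86 and 39 at 12 days, against 159, 142 and 75 in control skin. All 3 libraries at 10 days were below every other library, and the log2 difference from control was -2.92 ± 0.49 (7.55-fold lower, adjusted p = 0.00485). Wnt7b, an epithelial ligand of the hair follicle, fell by 0.97 with 748, 389 and 667 steps at 10 days against 1359, 1130 and 948 in control skin. Wnt3 and Wnt10a did not pass the test at any of the 3 times. Wnt3 had 956, 899 and 602 steps at 4 days, 807, 529 and 1020 at 10 days and 619, 684 and 554 at 12 days, against 1344, 1121 and 901 in control skin. Wnt10a had 518, 458 and 337 steps at 4 days, 705, 760 and 829 at 10 days and 449, 588 and 700 at 12 days, against 876, 639 and 580 in control skin. Wnt3 libraries at 12 days and Wnt10a libraries at 4 days lay below all controls, and every other knockout group overlapped them.

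**Figure D3:**
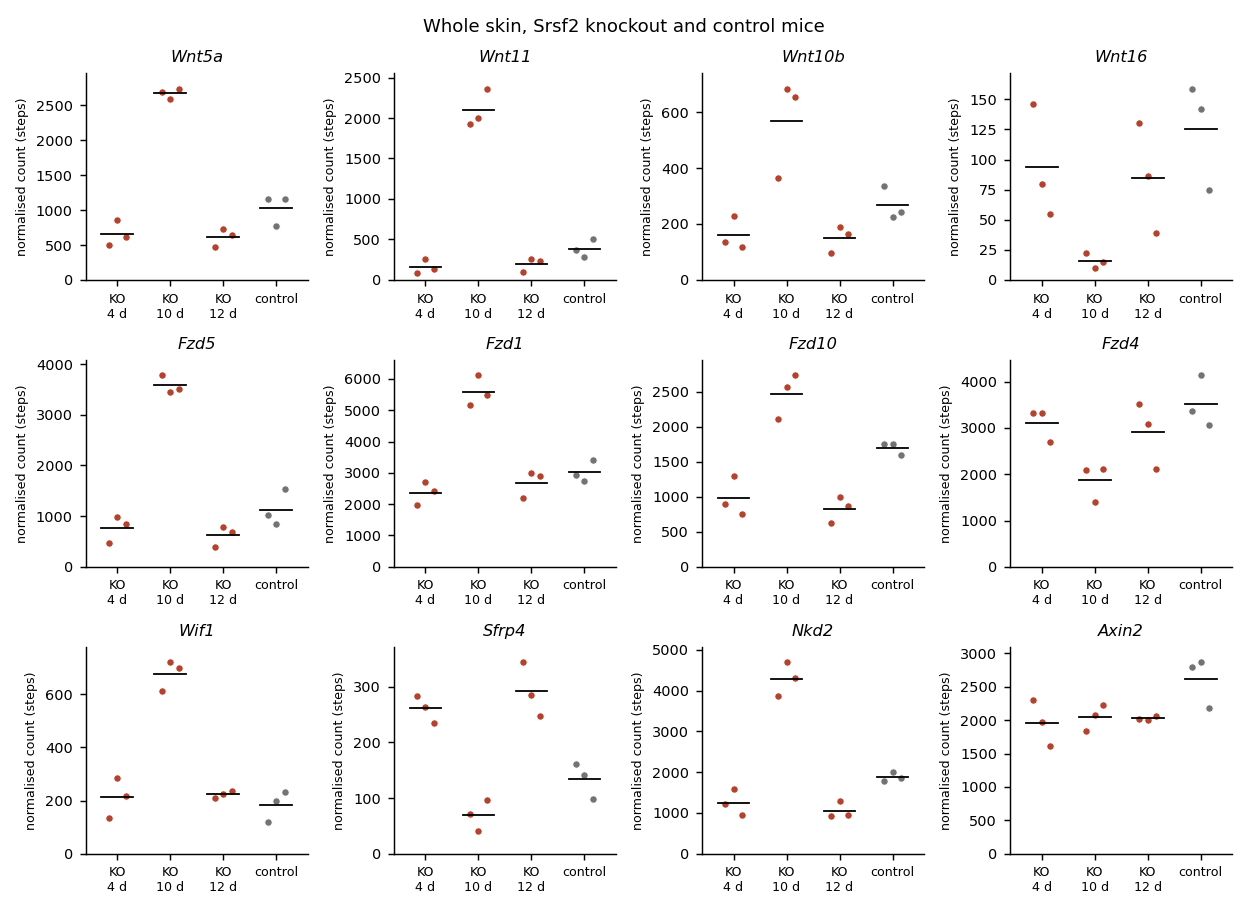
Steps per library (points) and group mean (line) of 12 Wnt genes in SRSF2-KO skin at 4, 10 and 12 days and in control skin, 3 mice per group. Wnt5a, Wnt11, Fzd5, Fzd1, Wif1 and Nkd2 are highest in the 3 libraries at 10 days, Wnt16, Fzd4 and Sfrp4 are lowest there, and Axin2 overlaps controls at 4 and 10 days.

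Of the receptors, Fzd1, Fzd3 and Fzd5 rose at 10 days and Fzd4 and Fzd9 fell. Fzd5 had 471, 979 and 852 steps at 4 days, 3778, 3446 and 3516 at 10 days and 383, 786 and 693 at 12 days, against 1026, 839 and 1528 in control skin. Fzd1 had 1986, 2701 and 2424 steps at 4 days, 5181, 6111 and 5496 at 10 days and 2185, 2987 and 2901 at 12 days, against 2918, 2755 and 3400 in control skin. For both receptors the 10 day libraries stood above all others, with log2 differences of 1.71 ± 0.32 for Fzd5 (adjusted p = 0.00672) and 0.89 ± 0.15 for Fzd1 (adjusted p = 0.00498). Fzd3, a planar polarity receptor, rose by 0.65 with 917, 751 and 850 steps at 10 days against 541, 496 and 560 in control skin, and its 318, 472 and 347 steps at 4 days were lower than in controls (log2 difference -0.51 ± 0.15, adjusted p = 0.0449). Fzd4, which is also the receptor of Norrin in retinal vessels, fell at 10 days by 0.93, and Fzd9, which is low in this tissue, fell by 1.18.

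Fzd10 and Fzd6, the gene known for setting hair orientation in mice, were called at other times. Fzd10 had 900, 1298 and 761 steps at 4 days, 2114, 2564 and 2733 at 10 days and 623, 1002 and 868 at 12 days, against 1750, 1748 and 1597 in control skin. Fzd10 libraries were below all controls at 4 and 12 days and above all controls at 10 days. The log2 difference was -0.82 ± 0.21 at 4 days (adjusted p = 0.0296), 0.53 ± 0.21 at 10 days (adjusted p = 0.0801) and -1.06 ± 0.21 at 12 days (adjusted p = 0.0352). Fzd6 had 1374, 1539 and 1181 steps at 4 days, 2563, 2270 and 2651 at 10 days and 1559, 1490 and 1808 at 12 days, against 2434, 1700 and 1769 in control skin, and fell at 4 days by 0.52 (adjusted p = 0.0498).

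The co-receptors Lrp5 and Lrp6 overlapped controls at all 3 times. Lrp5 had 4683, 4584 and 4048 steps at 4 days, 4374, 4788 and 4631 at 10 days and 3326, 4430 and 4907 at 12 days, against 5598, 4969 and 4675 in control skin. Lrp6 had 6742, 6834 and 7988 steps at 4 days, 7901, 6274 and 8096 at 10 days and 6428, 6301 and 6633 at 12 days, against 6752, 6442 and 7954 in control skin. At 10 days the 95% interval of the log2 difference ran from -0.45 to 0.16 for Lrp5 and from -0.20 to 0.35 for Lrp6.

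Of the R-spondins, Rspo2 rose at 10 days with 40, 96 and 67 steps against 15, 37 and 18 in control skin, and Rspo4, known from nail growth in people, rose with 179, 206 and 174 against 80, 101 and 119. Their log2 differences were 1.52 ± 0.41 (adjusted p = 0.0225) and 0.91 ± 0.21 (adjusted p = 0.0137), and neither overlapped controls. Rspo3 had 50, 100 and 62 steps at 10 days, which overlapped its 85, 80 and 74 in control skin.

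Secreted antagonists were divided between rises and falls. Wif1, which binds Wnt ligands, had 134, 284 and 217 steps at 4 days, 612, 721 and 699 at 10 days and 208, 225 and 236 at 12 days, against 120, 199 and 231 in control skin. Sfrp1 had 1077, 1920 and 1845 steps at 4 days, 3984, 4532 and 4448 at 10 days and 1172, 1655 and 1418 at 12 days, against 1856, 1463 and 2484 in control skin. Both were above every other library at 10 days (log2 difference 1.93 ± 0.28 for Wif1, adjusted p = 0.00311, and 1.19 ± 0.24 for Sfrp1, adjusted p = 0.00815). Dkk3, a divergent Dkk protein whose effect on Wnt signalling depends on context, had 662, 770 and 763 steps at 4 days, 1288, 1577 and 1133 at 10 days and 937, 1043 and 1166 at 12 days, against 917, 985 and 1092 in control skin. Its rise of 0.41 ± 0.14 at 10 days stood close to the threshold (adjusted p = 0.0498).

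Sfrp4 changed in opposite directions at 4 and 10 days. It had 284, 264 and 235 steps at 4 days, 72, 41 and 96 at 10 days and 344, 285 and 247 at 12 days, against 161, 142 and 98 in control skin. No group overlapped controls, with log2 differences of 0.99 ± 0.28 at 4 days (adjusted p = 0.0474), -0.98 ± 0.28 at 10 days (adjusted p = 0.0294) and 1.14 at 12 days, which missed the threshold. Sfrp5 had 343, 169 and 169 steps at 4 days, 357, 213 and 428 at 10 days and 469, 433 and 87 at 12 days, against 513, 1429 and 1065 in control skin. All knockout libraries were below all controls for Sfrp5, and the fall was called at 4 days (-2.10 ± 0.61, adjusted p = 0.0474). Frzb fell at 10 days by 1.59 with 114, 46 and 104 steps against 356, 266 and 160 in control skin, and Dkk2 fell by 0.70 with overlap between the groups.

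Feedback genes did not move together. Nkd2, which binds Dishevelled, had 1217, 1581 and 957 steps at 4 days, 3877, 4695 and 4311 at 10 days and 933, 1282 and 941 at 12 days, against 1790, 1996 and 1864 in control skin. It was below all controls at 4 days (log2 difference -0.62 ± 0.18, adjusted p = 0.0461), above them at 10 days (1.19 ± 0.18, adjusted p = 0.00346) and below them at 12 days (-0.85 ± 0.18, adjusted p = 0.0432). Nkd1, its paralogue, had 372, 483 and 426 steps at 4 days, 612, 806 and 834 at 10 days and 391, 485 and 388 at 12 days, against 449, 566 and 592 in control skin. Its 10 day libraries lay above all controls, with an adjusted p of 0.0524. Axin2, the widely used readout of beta-catenin activity, had 2298, 1976 and 1611 steps at 4 days, 1842, 2079 and 2228 at 10 days and 2016, 2007 and 2061 at 12 days, against 2794, 2866 and 2183 in control skin. Its log2 differences of -0.42, -0.34 and -0.36 missed the threshold at all 3 times, and its highest 4 and 10 day libraries overlapped the lowest control.

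Hair shaft and inner root sheath genes moved with the 10 day pattern. Of 26 such genes tested, 24 rose at 10 days, and their summed level was 4653611 to 6178731 steps at 10 days against 10520 to 251433 in control skin. All 9 melanocyte markers also rose at 10 days. The mean log2 level of the hair list was 5.41, 8.80 and 7.51 at 4 days, 15.23, 15.23 and 15.56 at 10 days and 4.55, 9.56 and 8.19 at 12 days, against 11.58, 6.96 and 11.28 in control skin. No control library came near the 10 day level, so the hair list and the knockout at 10 days cannot be told apart. The dermal papilla list, whose cells send Wnt signals to the follicle, had 5 of 16 genes higher and 1 lower at 10 days, and mean log2 levels of 8.50 to 8.91 against 7.91 to 8.17 in control skin. Over all genes 13.3% were higher and 11.9% lower.

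Endothelial, skeletal muscle and some adipocyte markers were lower at 10 days, beside the falls of Fzd4, Fzd9, Wnt16, Wnt7b, Frzb, Dkk2 and Sfrp4. Of these Wnt genes, Wnt7b, Wnt16, Fzd4 and Fzd9 were also tested in sorted cells of the knockout set. Sorted control cells held them at 988.6, 175.4, 14.7 and 12.8 normalised counts per kb. Frzb, Dkk2 and Sfrp4 were under the mean there. Of 10 endothelial markers 9 fell, with a summed level of 8183 to 9300 steps against 14017 to 18446 in control skin. Of 10 skeletal muscle markers 8 fell (241309 to 274382 against 401194 to 802992), and of 10 adipocyte markers 3 fell (19115 to 27153 against 26031 to 79079, which overlap). For dermal fibroblasts 2 of 14 markers fell, for T cells 1 of 8 and for macrophages 0 of 12, where 11.9% of all genes fell. The part of these cells in the changes of the Wnt genes was not tested.

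**Figure D4:**
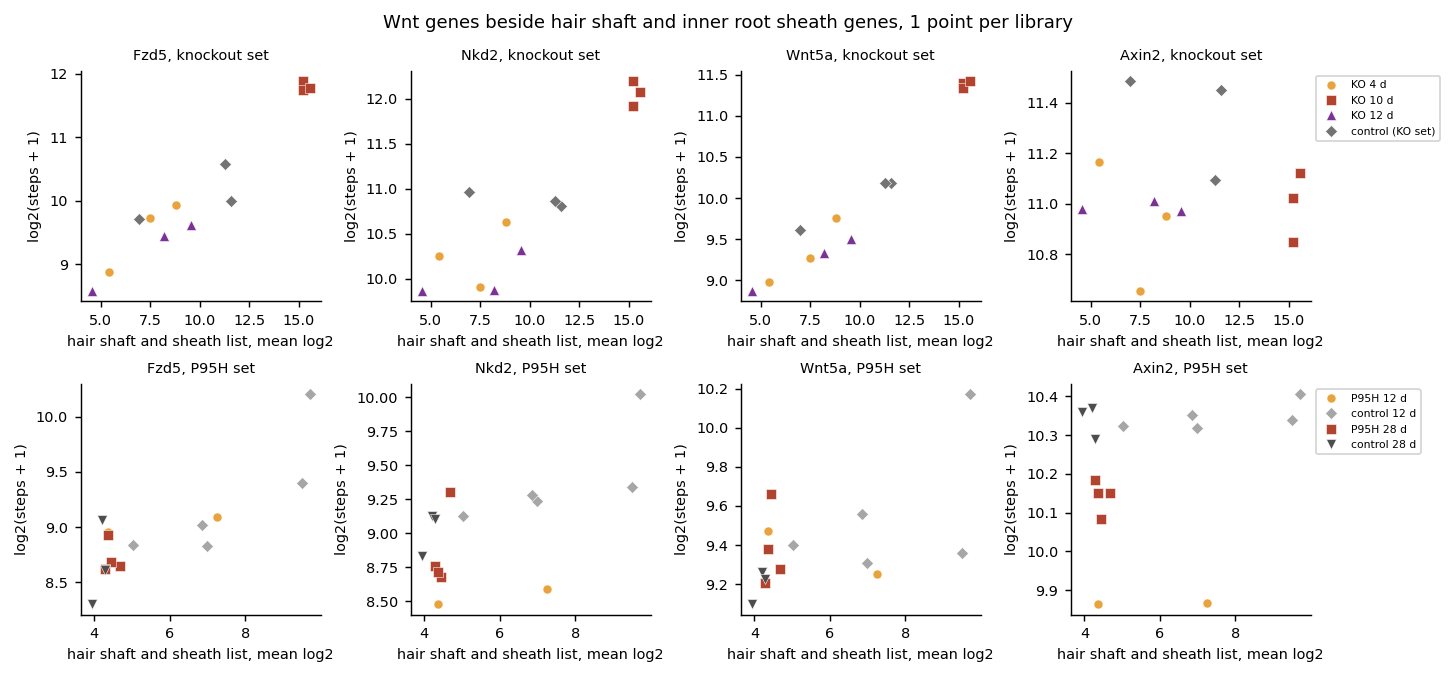
Level of Fzd5, Nkd2, Wnt5a and Axin2 as log2(steps + 1) against the mean log2 level of 26 hair shaft and inner root sheath genes, 1 point per library, in the knockout set (top: SRSF2-KO at 4, 10 and 12 days, control) and the P95H set (bottom: SRSF2-P95H and control at 12 and 28 days). The 3 libraries of knockout skin at 10 days stand alone at 15.23 to 15.56 on the hair axis with the highest Fzd5, Nkd2 and Wnt5a, while Axin2 there is within the range of the other libraries.

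The promoter of Wnt11 is shown because Wnt11 had the largest rise among ligands well above the level of no detection and was the only one of 10 genes higher at 10 days with a RefSeq promoter (GRCm38.p6) that holds the Tcf and Lef core letters CTTTGAT, read on either strand, in the 250 bases before the start site. The same letters were in 2 of 32 Wnt genes with a promoter in that table, Wnt11 and Wnt5b, in 0 of 5 that fell at 10 days, and in 1005 of all 27025 genes (3.72%). Capitals mark the letters, which begin 51 bases before the start site in Wnt11 and 71 bases before it in Wnt5b. Other start sites of both genes in the table had no match. The Wnt5b start site with the match lies inside the annotated gene, which starts at 119544347. The window printed for Wnt11 is chr7:98834862-98835111 (+ strand), and the stretch printed for Wnt5b is chr6:119449431-119449477 (- strand).
Wnt11: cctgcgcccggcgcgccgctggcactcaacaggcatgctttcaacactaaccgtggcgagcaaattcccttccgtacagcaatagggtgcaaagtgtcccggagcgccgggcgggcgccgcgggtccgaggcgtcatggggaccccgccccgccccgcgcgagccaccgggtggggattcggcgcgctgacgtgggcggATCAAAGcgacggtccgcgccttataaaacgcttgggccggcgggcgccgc
Wnt5b: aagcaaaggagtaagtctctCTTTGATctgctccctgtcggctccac

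At 4 days in knockout skin 1 of 49 Wnt genes rose, Sfrp4, and 5 fell, Fzd10, Fzd3, Fzd6, Nkd2 and Sfrp5, where 7.21% of all genes rose and 4.12% fell. The median over the 49 was -0.36 on the log2 scale against -0.01 over all genes. All controls had the drug for longer than 4 days, so the knockout and the days of treatment cannot be told apart here. None of the 6 was called under every alternative. The count was 0 without the 4 day knockout with replicate number 1 or 3 or without control replicate 1, 2 without control replicate 2 or 3, and 9 without the 4 day knockout with replicate number 2. With equal totals 11 genes were lower and 0 higher. At this time 10 of 14 dermal fibroblast markers were higher (summed level 1594716 to 3291722 steps, against 381886 to 867390 in control skin). So were 12 of 12 macrophage markers (103309 to 191360, against 39087 to 60871). Hair follicle stem cell markers had 6 of 17 lower and 1 higher. Hair shaft and inner root sheath genes had 4 of 26 lower, suprabasal keratinocyte markers 3 of 10 and basal keratinocyte markers 1 of 10, with none higher. The part of these cells in the result was not tested.

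At 12 days in knockout skin 0 of 49 rose and 2 fell, Fzd10 and Nkd2, where 0.823% of all genes rose and 0.458% fell. The count was 0 without the 12 day knockout with replicate number 1 or 3 and without any 1 of the 3 controls. At an unadjusted p under 0.05, 16 of the 49 were counted, where 19.7% of all genes were, and the median was -0.23 against 0.00 over all genes.

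Within the knockouts, 24 of 49 Wnt genes were higher and 10 lower at 10 than at 4 days, where 18.9% of all genes were higher and 21.4% lower. At 12 against 10 days, 10 were higher and 20 lower, where 19.2% of all genes were higher and 18.3% lower. With values as deposited the splits were 25 higher and 4 lower for 10 against 4 days and 6 higher and 20 lower for 12 against 10 days, and with equal totals the split for 12 against 10 days was 13 higher and 15 lower. Nkd2 had the smallest adjusted p in both contrasts (log2 difference 1.80 ± 0.18, adjusted p = 6.66e-05, and -2.04 ± 0.18, adjusted p = 0.000156). Genes that were not called against controls also differed between times. Wnt5b, with 305, 360 and 318 steps at 10 days against 121, 166 and 125 at 4 days, was higher by 1.26, and Notum, a secreted enzyme that strips the lipid from Wnt proteins, with 184, 307 and 246 against 89, 154 and 83, was higher by 1.20. Both contrasts share the 10 day libraries. Neither contrast includes controls, so the knockout and the days of treatment cannot be told apart in them.

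Markers of other cells differed between the same times. At 10 against 4 days 26 of 26 hair genes were higher, while 12 of 12 macrophage, 11 of 14 dermal fibroblast, 8 of 10 endothelial and 5 of 10 adipocyte markers were lower. At 12 against 10 days 26 of 26 hair genes were lower, while 10 of 12 macrophage, 9 of 14 dermal fibroblast, 8 of 10 endothelial and 8 of 10 skeletal muscle markers were higher. Macrophage markers summed to 103309 to 191360 steps at 4 days, 28414 to 47207 at 10 days and 79177 to 97937 at 12 days. Their part in the changes of the Wnt genes was not tested.

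In P95H skin at 12 days Dact2 and Dkk2 rose, and Rspo3, Wnt10b, Nkd2, Fzd10, Wnt3 and Axin2 fell, which made 2 higher and 6 lower of 47, where 3.96% of all 18311 genes tested rose and 2.97% fell. The median over the 47 was -0.09 against 0.00 over all genes. Only 2 P95H mice stood behind this time, and without the mouse with replicate number 2 the count was 3 (Axin2, Rspo3 and Sfrp5). With values as deposited it was 2, 1 higher and 1 lower.

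Axin2 had 931 and 933 steps in P95H skin at 12 days against 1277, 1295, 1280, 1307 and 1355 in control skin. The groups were far apart relative to their spread, and the log2 difference was -0.48 ± 0.06 (adjusted p = 0.000526). Rspo3 had 28 and 18 steps against 80, 81, 80, 80 and 99 in control skin, a log2 difference of -1.85 ± 0.24 (3.61-fold lower, adjusted p = 0.000569). Wnt10b had 57 and 53 steps against 117, 102, 137, 117 and 196 in control skin (log2 difference -1.23 ± 0.23, adjusted p = 0.00435). These 3 genes showed no overlap between the groups.

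Wnt3 had 611 and 479 steps against 806, 646, 822, 851 and 783 in control skin, and Fzd10 had 623 and 624 against 991, 769, 954, 936 and 1144. Nkd2 had 356 and 384 steps against 603, 648, 558, 620 and 1038. All 3 were below every control, by 0.52, 0.61 and 0.87 on the log2 scale. Dact2, a scaffold that binds Dishevelled, had 244 and 232 steps against 116, 174, 152, 152 and 136 in control skin (log2 difference 0.71 ± 0.19, adjusted p = 0.0352). Dkk2, which binds Lrp5 and Lrp6, had 302 and 398 steps against 180, 257, 235, 200 and 172 (0.75 ± 0.17, adjusted p = 0.0176). Both were above every control.

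At 28 days Rspo3 and Dact2 were again far from controls. Dact2, Fzd9, Wnt4 and Wnt10a rose and Rspo3, Wnt10b and Axin2 fell, 4 higher and 3 lower of 47, where 6.7% of all genes rose and 5.46% fell. The median over the 47 was -0.02, close to that over all genes. Rspo3 had 18, 26, 17 and 14 steps in P95H skin against 77, 53 and 76 in control skin (log2 difference -1.83 ± 0.22, adjusted p = 0.000256). Dact2 had 386, 259, 290 and 232 steps against 119, 163 and 140 (1.03 ± 0.17, adjusted p = 0.00232). The highest P95H value for Rspo3 was 26 and the lowest control was 53, and for Dact2 the lowest P95H value was 232 and the highest control 163.

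Axin2 at 28 days had 1135, 1084, 1162 and 1135 steps against 1323, 1252 and 1314 in control skin. The groups stayed apart with a small log2 difference of -0.20 ± 0.06 (adjusted p = 0.0339), which on the deposited values was 0.41 and of the other sign. Wnt10b had 64, 52, 58 and 42 steps against 85, 101 and 77 (-0.70 ± 0.20, adjusted p = 0.0401). Wnt10a had 501, 635, 568 and 680 steps against 461, 484 and 419 (0.38 ± 0.11, adjusted p = 0.0392), and Wnt4 had 1153, 1085, 1012 and 1125 against 787, 957 and 732 (0.41 ± 0.13, adjusted p = 0.0451). Fzd9 had 95, 90, 109 and 86 steps against 44, 59 and 66 (0.76 ± 0.22, adjusted p = 0.0383). None of these 5 genes overlapped controls.

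Without the shallow P95H library with replicate number 1, Fzd9 and Wnt4 were no longer called and 5 Wnt genes were. The count was 2, Rspo3 and Dact2, without the P95H mouse with replicate number 2 or 4 or without the control with replicate number 1 or 4, and 3 without the control with replicate number 2. With equal totals it was 2 higher and 3 lower, and with values as deposited Dact2 alone was called, where the median of all genes moved to 0.59.

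Most Wnt genes overlapped controls. At 28 days Wnt3 had 808, 822, 892 and 865 steps against 943, 806 and 815 in control skin, Lrp6 had 4324, 3572, 3644 and 3397 against 3782, 3899 and 3664, and Nkd1 had 205, 182, 212 and 180 against 148, 197 and 195. Lrp5 had 4823, 2411, 2476 and 2552 steps against 2505, 2592 and 2479, where the high value belongs to the shallow library. Wnt5a had 620, 808, 590 and 666 steps against 613, 598 and 547, Wnt16 had 35, 31, 52 and 29 against 53, 51 and 76, Sfrp1 had 794, 1145, 985 and 1019 against 912, 984 and 807, and Wif1 had 165, 98, 119 and 106 against 140, 176 and 105. Dkk3, with 408, 432, 479 and 465 against 596, 535 and 502, was below all controls at 28 days without passing the test (adjusted p = 0.194).

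At 12 days Wnt5a had 709 and 609 steps against 634, 657, 675, 753 and 1152 in control skin, Wnt10a had 495 and 595 against 464, 413, 502, 479 and 509, and Wnt16 had 32 and 83 against 69, 112, 60, 58 and 25. Lrp5 had 2302 and 2610 steps against 2483, 2608, 2477, 2513 and 2467, Lrp6 had 3823 and 3459 against 3624, 4140, 3633, 3734 and 4767, and Nkd1 had 173 and 135 against 173, 223, 147, 187 and 225. Dkk3 had 476 and 734 steps against 589, 698, 658, 573 and 494, Sfrp1 had 1097 and 1231 against 991, 1153, 1229, 1219 and 1427, and Wif1 had 98 and 131 against 145, 98, 129, 134 and 224. All 9 genes overlapped their controls at 12 days.

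The hair list in the P95H set was uneven among controls at 12 days, with mean log2 levels of 4.35 and 7.25 in P95H skin against 6.99, 9.49, 5.03, 6.86 and 9.71 in control skin. Control replicate 5, the highest, also had the highest Nkd2, Fzd5, Fzd10, Wnt5a, Wnt11 and Wnt10b of its group. Without it 9 Wnt genes were called, 3 higher and 6 lower. At 28 days the list was level, with 4.28 to 4.68 in P95H skin and 3.93 to 4.29 in control skin. At 12 days 2 of 10 skeletal muscle markers fell, and their summed level was 142885 to 154805 steps in P95H skin against 201392 to 240967 in control skin. Suprabasal keratinocyte markers were higher for 4 of 10 genes at 12 days and 5 of 10 at 28 days, with mean log2 levels of 13.24 to 13.64 at 28 days against 12.65 to 12.82 in control skin, and their part in the result was not tested.

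The difference between the P95H effects at 28 and 12 days was tested directly and no Wnt gene passed it, where 0.0109% of all genes did. The smallest adjusted p was 0.31, for Dkk2, and 9 of 47 had an unadjusted p under 0.05, as had 8.21% of all genes. Axin2 was lower by 0.48 at 12 days and by 0.20 at 28 days, a difference of 0.28 ± 0.08 with an adjusted p of 0.401. Control skin at 28 against 12 days also gave 0 of 47 (0.00546% of all genes called), with 12 at an unadjusted p under 0.05 (11.7% of all genes) and the smallest adjusted p, 0.149, for Sfrp4, which had 267, 574 and 413 steps at 28 days against 105, 223, 192, 167 and 142 at 12 days. Wnt10b controls were lower at 28 days without overlap (85, 101 and 77 against 117, 102, 137, 117 and 196, adjusted p = 0.294).

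In sorted SRSF2-KO cells 0 of 40 Wnt genes passed limma's test, where 0.0394% of all 17744 genes tested did. At an unadjusted p under 0.05, 4 of the 40 were counted, where 17.2% of all genes were. On the recovered reads edgeR called 0 and DESeq2 called 2, Dact2 and Rspo3. Dact2 had 1211, 1421 and 854 normalised counts in SRSF2-KO cells against 248, 211 and 243 in control cells. The groups were apart by a wide gap, with a log2 difference of 2.28 ± 0.27 (95% interval 1.66 to 2.90), and the adjusted p was 0.0675 by limma, 0.0714 by edgeR and 2.57e-12 by DESeq2. Without the SRSF2-KO library with replicate number 2, which stands apart in its table, limma called Dact2 alone (2.12, adjusted p = 0.0223).

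Rspo3 had 7.1, 61.6 and 158 normalised counts in SRSF2-KO cells against 384, 767 and 216 in control cells (log2 difference -3.21 ± 1.03, adjusted p = 0.21 by limma and 0.0408 by DESeq2). The groups did not overlap, though the SRSF2-KO cells spread widely. Fzd1 had 5990, 9029.7 and 3701 normalised counts against 3459, 3329.7 and 2740.0 in control cells, and Fzd7 had 13707, 37886 and 13776 against 12266, 9587 and 10619.6. Both receptors were above all controls, with adjusted p of 0.238 and 0.323 by limma. The highest value of each came from the SRSF2-KO library with replicate number 2, and the other SRSF2-KO values also lay above all controls.

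The day 10 pattern of whole skin was not called in the sorted cells of the same day. Wnt5a had 466, 1192 and 922 normalised counts against 1322, 2338 and 956 in control cells, and Wnt11 had 477, 2198 and 833 against 1135, 1007 and 906.5. Fzd5 had 2662, 4212 and 2601 against 3225, 3196 and 3467, and Nkd2 had 72.5, 308 and 493 against 299.6, 365 and 569. All 4 overlapped between the groups. For Wnt5a, Wnt11 and Fzd5 the overlap came only from the SRSF2-KO library with replicate number 2. The other SRSF2-KO values of these genes lay below all controls. Here the 20 tested hair genes had mean log2 levels of 5.50 to 5.99 in SRSF2-KO cells and 5.67 to 7.59 in control cells.

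Wnt3, Wnt10a, Wnt10b, Wnt16, Axin2, Nkd1, Lrp5, Lrp6, Dkk3, Sfrp1 and Wif1 overlapped as well, Wnt3 only through the SRSF2-KO library with replicate number 2. Wnt3 had 1275, 7279.9 and 5393 normalised counts in SRSF2-KO cells against 6689, 9417 and 7276 in control cells, Wnt10a had 4093, 14971 and 4047 against 3484, 4867 and 4240.0, Wnt10b had 61.8, 747 and 469 against 341, 516 and 547, and Wnt16 had 104, 1109 and 714 against 778, 918 and 598. Axin2 had 4335, 10386 and 7340.2 against 6455, 7524 and 7155, and Nkd1 had 31.3, 188 and 30.7 against 55.2, 12.8 and 25.7. Lrp5 had 9529, 8704 and 8671 against 9104, 10110.7 and 11414, and Lrp6 had 9889.8, 7215 and 8051 against 9177, 8651 and 8565. Dkk3 had 2060.5, 1366 and 1356 against 1796, 852 and 676, Sfrp1 had 4126, 3729 and 2777 against 4117, 1939 and 2164, and Wif1 had 129, 154 and 14.5 against 52.2, 14.9 and 15.4. For Axin2 the 95% interval of the log2 difference ran from -0.75 to 0.71.

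In sorted SRSF2-P95H-het cells after DMBA/TPA 0 of 33 Wnt genes passed limma's test, as did 0% of all 14914 genes tested. At an unadjusted p under 0.05, 11 of the 33 were counted, where 15.9% of all genes were. Among the 33, Wnt9a reached the mean needed for testing only through SRSF2-P95H-het cells (19.97 normalised counts, against 8.96 in control cells). Its place in these counts is therefore no separate support for a rise. On the recovered reads edgeR called 0 and DESeq2 called 3, Dact2 and Sfrp1 higher and Wnt3 lower. Sfrp1 had 2234, 2534 and 2098 normalised counts against 1503, 1559 and 1252 in control cells (log2 difference 0.67 ± 0.11, adjusted p = 0.1 by limma). Wnt3 had 647, 492 and 453 against 882, 743 and 767 (-0.60 ± 0.14, adjusted p = 0.134), and without the SRSF2-P95H-het library with replicate number 1 it was the gene that limma called. Wnt10b had 27.1, 20.8 and 27.4 against 53.2, 49.2 and 48.3 (-0.98 ± 0.22, adjusted p = 0.13). These 3 genes showed no overlap between the groups.

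Among the rest of that table, Axin2 had 599, 659.8 and 761 normalised counts against 601, 670.0 and 645 in control cells, Nkd1 had 17.3, 16.4 and 13.7 against 13.3, 19.5 and 7.8, and Wnt16 had 212, 337 and 302.5 against 239, 298 and 241. Lrp5 had 2419.6, 2684 and 2579.9 against 2579, 2711 and 2435, and Lrp6 had 3219.6, 3096 and 2934 against 2832, 2812 and 3127. Wnt5a had 216, 171 and 221 against 164, 197 and 279, Dkk3 had 433, 524 and 569.8 against 497.5, 478 and 383, and Wif1 had 38.2, 42.4 and 33.4 against 78.5, 51.0 and 40.5. These 8 overlapped, and Wnt10a, with 629, 595 and 567 against 658, 697 and 656, lay below all controls with an adjusted p of 0.384.

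Dact2 and Rspo3 can be followed through all 4 tables. Dact2 lies on chr17:14195052-14204304 and Rspo3 on chr10:29452416-29535867 (GENCODE M21 on GRCm38, both on the - strand), each with an exon that overlaps an antisense gene, by 73 bases with AC151292.1 for Dact2 and by 404 bases with Gm48159 for Rspo3. Exons of Wnt11, Wnt5a, Wnt7b, Fzd5, Fzd6, Axin2, Notum and Sfrp2 also overlap another gene on the opposite strand, and the labels do not say if the authors' counting used the strand. In knockout skin Dact2 had 551, 275 and 335 steps at 4 days, 454, 319 and 327 at 10 days and 294, 349 and 472 at 12 days, against 269, 249 and 222 in control skin. Every knockout library was above every control, but the log2 differences of 0.59, 0.56 and 0.57, which share the 3 controls, did not pass the test (adjusted p = 0.166, 0.132 and 0.25). In sorted SRSF2-P95H-het cells Dact2 had 270, 176 and 231 normalised counts against 108, 140.1 and 117 in control cells (log2 difference 0.87 ± 0.18, adjusted p = 0.107 by limma, 0.109 by edgeR and 0.00431 by DESeq2).

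Over the 4 comparisons with separate samples, which are P95H skin at 12 and 28 days, sorted SRSF2-KO cells and sorted SRSF2-P95H-het cells, Dact2 was above its controls without overlap in all. Among 14377 genes tested throughout, 48 genes (0.334%) did the same and 86 (0.598%) were below without overlap in all 4. Dact2 was singled out after its values were seen. Rspo3 in knockout skin had 54, 60 and 49 steps at 4 days and 63, 65 and 25 at 12 days against 85, 80 and 74 in control skin, below all controls at both times without passing the test. In sorted SRSF2-P95H-het cells it had 18.5, 7.8 and 20.6 normalised counts against 27.9, 33.4 and 14.6, with overlap.

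The 250 bases before the RefSeq start site of Dact2 (GRCm38.p6, chr17:14203832-14204081, - strand) are shown because it is the Wnt gene with the most even direction over the tables. The letters CTTTGAT or ATCAAAG are not in this window. The window lies inside the gene as annotated by GENCODE, which starts at 14204304, and the bases before that start are not shown.
Dact2: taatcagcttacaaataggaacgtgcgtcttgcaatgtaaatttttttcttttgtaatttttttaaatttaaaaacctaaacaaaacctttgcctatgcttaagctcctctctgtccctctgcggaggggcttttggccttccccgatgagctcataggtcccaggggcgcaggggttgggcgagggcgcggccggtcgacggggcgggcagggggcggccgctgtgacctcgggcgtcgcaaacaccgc

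**Figure D5:**
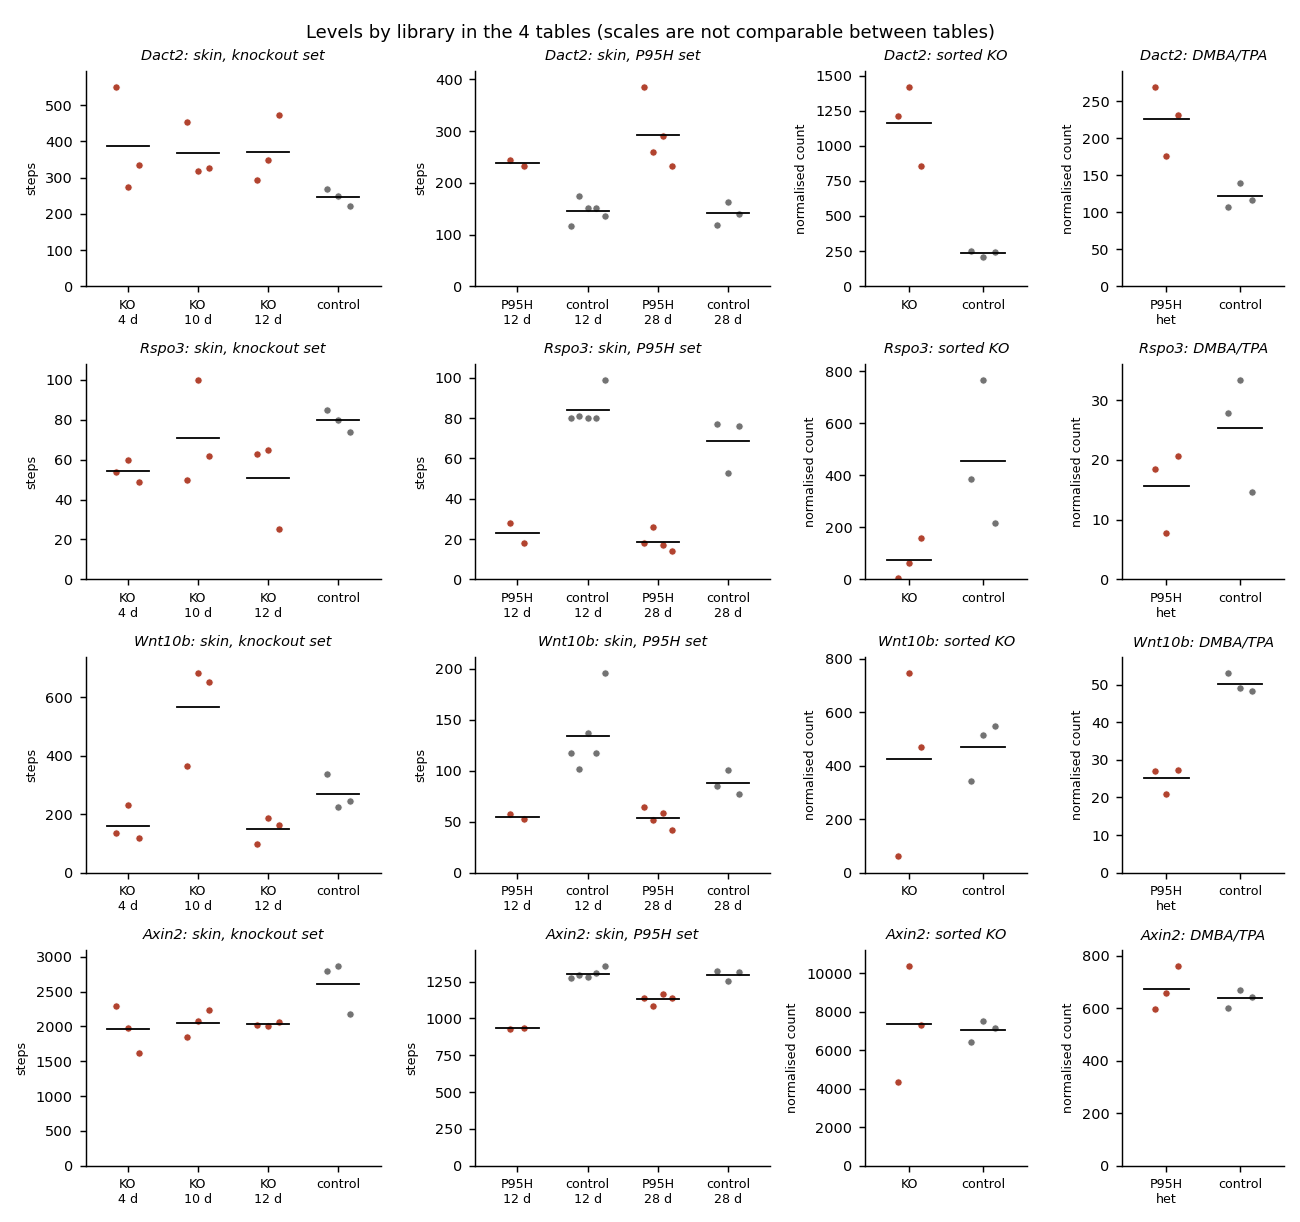
Level per library (points) and group mean (line) of Dact2, Rspo3, Wnt10b and Axin2 (rows) in knockout-set skin, P95H-set skin, sorted knockout-set cells and sorted DMBA/TPA cells (columns), in steps for skin and normalised counts for sorted cells, each mutant group left of its control. Every mutant library is above its controls for Dact2, Rspo3 in P95H skin is at 14 to 28 steps against 53 to 99 in controls, and Axin2 is below all its controls in P95H skin and overlaps them in both kinds of sorted cells.

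Other genes of the pathway, from lists chosen with earlier results known, are counted beside the shares over all genes, which at 10 days were 13.3% higher and 11.9% lower. Of 30 genes for Wnt secretion, co-receptors, planar polarity and other cell surface or secreted modulators, 10 rose and 2 fell at 10 days. At 4 days 0 of the 30 rose and 3 fell, where 7.21% of all genes rose and 4.12% fell. None passed at 12 days, where 0.823% of all genes rose and 0.458% fell. The smallest adjusted p at 10 days belonged to Lgr6, an R-spondin receptor of skin stem cells (-0.93, adjusted p = 0.00297), Ptk7, a polarity co-receptor (1.07, adjusted p = 0.00492), Tspan12, a Fzd4 partner (-1.29, adjusted p = 0.00614), and Vangl1 (0.54, adjusted p = 0.0115). Of 31 cytoplasmic and nuclear components, 5 rose and 3 fell at 10 days, shares near those over all genes. The smallest adjusted p belonged to the transcription factors Tcf7 (1.16, adjusted p = 0.00289) and Lef1 (2.91, adjusted p = 0.00792), the co-repressor Tle3 (0.82, adjusted p = 0.00839) and the kinase Csnk1e (0.92, adjusted p = 0.00955). Ctnnb1, which encodes beta-catenin, was higher by 0.65 (adjusted p = 0.0168).

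Of 22 tested genes known as Wnt targets, 10 rose and 2 fell at 10 days, where 13.3% of all genes rose and 11.9% fell, and the smallest adjusted p belonged to Ascl2 (-2.24, adjusted p = 0.00289), Tcf7, Lgr6 and the cyclin gene Ccnd1 (1.50, adjusted p = 0.00416). Hoxc13, Dlx3 and Msx2 of that list are also hair shaft genes and in the hair list, and Bmp4 is in the dermal papilla list. Lef1 and Tcf7 are also counted among the cytoplasmic and nuclear components. Lgr5, Lgr6, Znrf3, Rnf43 and Apcdd1 are also counted among the cell surface and secreted modulators, so the counts of the lists are not separate. In knockout skin at 4 days 0 of the 22 rose and 4 fell, where 7.21% of all genes rose and 4.12% fell. At 12 days none of the 22 passed, where 0.823% of all genes rose and 0.458% fell. In P95H skin 2 of the 22 rose and 4 fell at 12 days, where 3.96% of all genes rose and 2.97% fell. At 28 days 3 rose and 2 fell, where 6.7% rose and 5.46% fell. Bmp4 fell at 12 days (-1.14, adjusted p = 0.000569), Ccnd1 and Cd44 rose at both times (0.76 and 0.71 at 12 days, 0.64 and 0.71 at 28 days), and Lgr6 fell at both (-0.79 and -0.70). In sorted cells no gene of the 3 lists passed the test in either table.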

How the data were processed

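RNA was extracted with Trizol and libraries were made with stranded total RNA kits, a different kit for each mouse line, per the labels' protocols. STAR, featureCounts and DESeq2 are named in the submitters' processing notes, with no version, and neither genome build nor strand setting is given there. The authors deposited 4 tables of normalised values per gene (a signal, not raw counts), in which every value is a whole multiple of 1 amount per library (tolerance 0.0001 of a step). In whole skin the deposited signal was divided by that amount, giving steps, because libraries already had like medians on that scale. Sorted values were used as deposited, and their recovered reads went only into edgeR 4.0.16 and DESeq2 1.42.0. The tables held 0 columns of other series.

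Each table was fitted once with limma 3.58.1 (trend) on log2(value + 1), with a term per group, for genes with a mean of at least 10. Log2 differences are on that scale, which understates changes of low genes. P-values were adjusted by Benjamini and Hochberg over all genes tested, two-sided, with a threshold of 0.05. The design had assumed normalised counts throughout, so the step scale for skin is a departure from it. Alternatives were a pseudocount of 5, no filter, equal totals, only the compared groups, the replicate number as a block, deposited values, edgeR, DESeq2, and each library left out in turn. Members of a group are labelled as biological replicates, and p-values measure the spread between these samples. Scripts were tested on simulated data.

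Values in every sample are given for up to 8 called genes with the smallest adjusted p per comparison and always for Axin2, Nkd1, Lrp5, Lrp6, Wnt3, Wnt5a, Wnt10a, Wnt10b, Wnt16, Dkk3, Sfrp1 and Wif1. For the other lists, up to 4 called genes with the smallest adjusted p are named. Further genes were named after their values were seen. The genes and lists were chosen with earlier results of these data known.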

Additional observations from a re-analysis of the deposited data

Results flagged for a closer look

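Of 94 sets of values checked (a gene in a group of 4 or 5 libraries), 7 held a single library far from the rest, where chance alone gives about 1 in 20. Control skin of the P95H set at 12 days, replicate 5, stood apart for 4 genes. It had 180.0 steps of Rspo4 where the other 4 had 46 to 70, 99 steps of Rspo3 against 80 to 81, 1038 steps of Nkd2 against 558 to 648, and 1152 steps of Wnt5a against 634 to 753. P95H skin at 28 days held 3 more. Replicate 1, the shallowest library, had 630.0 steps of Nkd2 where the other 3 had 408 to 432, and 4823 steps of Lrp5 where they had 2411 to 2552. Replicate 2 had 141 steps of Rspo4 where the others had 88 to 94.

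For 3 genes the difference from the shared controls changed direction between times, by limma's test between the times, with called effects of opposite sign. Nkd2 differed by 1.80 on the log2 scale between 10 and 4 days (adjusted p = 6.66e-05) and by -2.04 between 12 and 10 days (adjusted p = 0.000156). Fzd3 differed by 1.16 between 10 and 4 days (adjusted p = 0.000185), and Sfrp4 by -1.97 (adjusted p = 0.000387). The controls cancel in these differences, so they rest on the knockout libraries alone. No control had 4 days of the drug, so the knockout and the days of treatment cannot be told apart.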

How the results depend on the processing

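Counts of Wnt genes called moved with the processing as follows. In knockout skin at 4 days the 6 became 1 with no filter, 11 with equal totals, 0 with only the compared groups, 3 with the replicate block and 1 on deposited values, and 0 to 9 with a library left out. At 10 days the 23 became 10 to 19 with a library left out. At 12 days the 2 became 1 with equal totals, 0 with only the compared groups and 0 on deposited values, and 0 to 2 with a library left out. The 34 of 10 against 4 days and the 30 of 12 against 10 days ranged over 28 to 33 and 22 to 27. In P95H skin the 8 at 12 days became 2 on deposited values and 3 to 9 with a library left out, and the 7 at 28 days became 3 with no filter, 4 with the replicate block, 1 on deposited values and 2 to 6 with a library left out. The test between the P95H times gave 0 to 1. Control skin at 28 against 12 days gave 4 on deposited values and 0 with any library left out. Sorted SRSF2-KO cells gave 1 with no filter, 2 by DESeq2 and 0 to 1 with a library left out, and sorted SRSF2-P95H-het cells gave 1 with no filter, 2 with the replicate block, 3 by DESeq2 and 0 to 1. On deposited values the sign turned for Fzd8 between 10 and 4 days (0.03) and for Axin2 in P95H skin at 28 days (0.41). The cause was not tested.

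Deviations from the group means of libraries with the same replicate number correlated at -0.458 to 0.84 in knockout skin, -0.189 to 0.367 in P95H skin, 0.058 to 0.19 in sorted knockout-set cells and 0.056 to 0.15 in sorted DMBA/TPA cells. No table had every pair above 0.1, so the numbers were not taken to pair the samples, although all pairs were positive in both sorted tables. Beside the counts above, the block gave 21 at 10 days, 2 at 12 days and 7 in P95H skin at 12 days. Genes at a few steps, such as Wnt8a and Rspo2 in controls, are limited by depth.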
